A study of Saccharomyces cerevisiae with 17 samples.

Results

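The comparison described here asks whether loss of Xrn1 changes how far each mRNA moves in 30 min of osmotic stress in Saccharomyces cerevisiae, budding yeast. For every gene it is the 30 min response of cells in which Xrn1 was depleted minus the 30 min response of cells in which it was not, on a log2 scale, and it rests on 11 of the 17 RNA sequencing libraries of the series. Of 7126 annotated features, 6195 had enough counts to be tested. Genes were split by the mean of both arms' responses into 1002 induced genes and 1027 repressed genes, each with more than 2-fold change and an adjusted p under 0.05, and 4166 others. The mean response passed the test, at any fold, in 65.3% of tested genes.

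All libraries came from the MATa strain BY25598, whose labels list can1-100, trp1-1, ade2-1, his3-11,15 and an allele of leu2, the plant auxin receptor OsTIR1 (9Myc-tagged, under the ADH1 promoter at ura3-1, marked with URA3) and XRN1 fused to an auxin-inducible degron (AID, marked with HIS). Cells growing at 30 °C in rich medium received 500 µM auxin for 30 min (Xrn1-AID) or none (Xrn1-WT), and then 0.4 M NaCl for 30 min or no salt. There were 2 Xrn1-AID libraries at 30 min, 3 at 0 min, and 3 Xrn1-WT libraries at each time. Xrn1-WT thus carries the degron and OsTIR1 as well, the labels name no solvent control, and auxin and loss of Xrn1 cannot be told apart. With salt after auxin, the Xrn1-AID libraries at 30 min came later after the start of auxin than those at 0 min. No unstressed Xrn1-AID library has that later time, so longer depletion and the salt response cannot be told apart either. The labels do not say that replicates were separate cultures, and the spread behind each p-value may therefore be partly technical.

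Xrn1 is the main cytoplasmic exonuclease that degrades decapped mRNA from its 5′ end, and factors of this pathway are also known to enter the nucleus and to affect transcription. In an auxin degron strain, auxin bridges the tagged protein to OsTIR1, which marks it for the proteasome. High salt activates the kinase Hog1 and, through Msn2 and Msn4 among others, a program that raises genes for glycerol, trehalose, chaperones and ion export while genes for ribosomes and their assembly fall for a time. The level of an mRNA during such a response depends on its synthesis and on its decay.

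XRN1 (YGL173C, chromosome VII, 175527 to 180113) had 34.1 and 70.0 CPM (counts scaled to library size, with TMM factors between libraries) in Xrn1-AID at 30 min, against 64.7, 48.9 and 61.9 CPM in Xrn1-AID at 0 min. In Xrn1-WT it had 39.5, 47.6 and 34.3 CPM at 30 min, against 24.4, 38.5 and 12.2 CPM at 0 min. Depletion works at the level of protein, and mRNA values give no check of it. The difference between the responses of XRN1 was -0.86 ± 0.52 (log2 ± SE, adjusted p = 0.398).

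Library totals ranged from 13.9 to 30.4 M counts, and a count of 0 allowed up to 0.0986 to 0.215 CPM (3 counts, counting error only). Pearson's r of log2 CPM between libraries of 1 group was between 0.951 and 0.993, lowest between Xrn1-WT 0 min replicates 2 and 3, the 2 of the 11 libraries at 0 and 30 min that lay farthest from their group. The 6 mating type a markers summed to 223 to 877 CPM and the 2 tested alpha markers to 18.4 to 61.8 CPM, as the MATa label has it, and the meiosis markers summed to 28.5 to 49.4 CPM.

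In 5 of the 96 called genes the difference passed the test with each of the 11 libraries left out in turn: the heat shock protein gene SSA4, the acid phosphatase genes PHO11 and PHO12, MHT1, a methyltransferase gene of methionine metabolism, and TMA16, whose product is found with ribosomes. TMA16 (YOR252W) had 18.7 and 20.9 CPM in Xrn1-AID at 30 min and 10.0, 11.4 and 11.3 CPM in Xrn1-WT at 30 min, a difference between the responses of 1.30 ± 0.20 (adjusted p = 0.00686). CBF5, the pseudouridine synthase of H/ACA small nucleolar particles, had the largest difference of the ribosome assembly genes called and kept its call in 10 of 11 such fits. The stretch from 300 to 101 bases before the coding start is printed for these genes, since it is where yeast factors of their regulons commonly bind and since it shows what PHO11 and PHO12 share. Sequences are RefSeq's for R64 (sacCer3), read 5′ to 3′ on the strand of the gene: SSA4 at chrV:364289-364488 (plus strand), PHO11 at chrI:225160-225359 (plus), MHT1 at chrXII:17714-17913 (minus) and CBF5 at chrXII:505834-506033 (plus). Capitals mark AGGGG (the stress response element of Msn2 and Msn4) and TTCNNGAA (a heat shock element core) in SSA4, CACGTG (bound by Pho4 and Cbf1) in PHO11, and GATGAG (the PAC element) and AAAAATTTT or its complement (the RRPE element) in CBF5. None of the motifs searched lies in the window of MHT1.
SSA4: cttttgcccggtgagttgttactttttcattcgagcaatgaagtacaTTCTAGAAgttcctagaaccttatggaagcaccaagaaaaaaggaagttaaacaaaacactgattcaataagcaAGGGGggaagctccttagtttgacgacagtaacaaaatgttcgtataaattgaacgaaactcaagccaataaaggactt
PHO11: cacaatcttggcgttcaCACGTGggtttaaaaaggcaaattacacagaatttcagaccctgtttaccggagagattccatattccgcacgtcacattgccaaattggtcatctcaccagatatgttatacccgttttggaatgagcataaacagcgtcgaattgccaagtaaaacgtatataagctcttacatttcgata
MHT1: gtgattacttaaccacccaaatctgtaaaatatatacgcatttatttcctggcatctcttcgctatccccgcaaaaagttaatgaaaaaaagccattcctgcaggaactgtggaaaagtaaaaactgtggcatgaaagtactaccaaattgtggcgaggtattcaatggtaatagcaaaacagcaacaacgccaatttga
CBF5: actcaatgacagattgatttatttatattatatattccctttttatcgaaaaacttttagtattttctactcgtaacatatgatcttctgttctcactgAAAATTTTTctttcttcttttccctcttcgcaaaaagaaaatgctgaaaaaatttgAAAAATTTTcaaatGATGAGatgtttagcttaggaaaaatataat
The window of PHO12 (chrVIII:551799-551998, plus strand) has the same 200 bases as that of PHO11.

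Across genes the arms' responses were alike in kind. Over the 6195 genes, Pearson's r between the Xrn1-AID and the Xrn1-WT response was 0.893, and the SD of the Xrn1-AID responses was 0.947 times that of the Xrn1-WT responses. These responses share no library, and genes are not independent replicates. The change passed the test in 53.8% of genes in Xrn1-AID (27.2% higher and 26.6% lower at 30 min) and in 56.6% in Xrn1-WT (29.1% higher and 27.5% lower). Both arms had the same sign in 82.0% of genes. The difference passed the test in 96 genes, 1.55% of those tested, of which 62 had the higher response in Xrn1-AID (1%) and 34 the lower (0.549%).

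**Figure D1:**
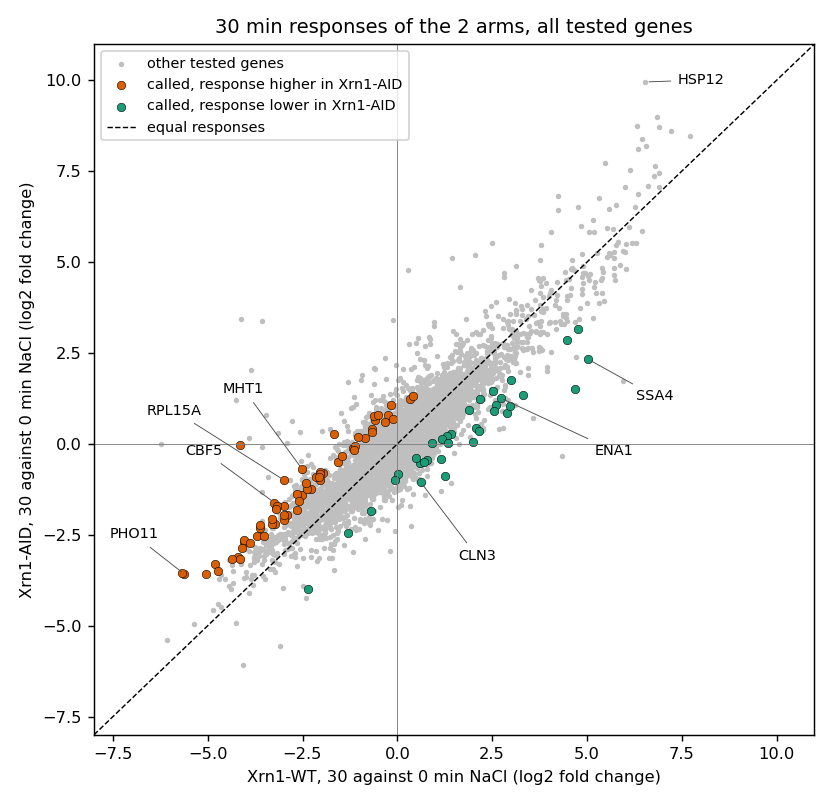
Each point is 1 of the 6195 tested genes, with its log2 fold change from 30 against 0 min NaCl in Xrn1-AID on the y axis and in Xrn1-WT on the x axis. The 62 genes with a higher response in Xrn1-AID lie above the dashed line of equal responses and mostly among repressed genes, and the 34 with a lower response lie below it.

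Levels here are relative to the other mRNAs of a library, since no measure of total mRNA per cell entered the scaling. On that scale repressed genes fell less in Xrn1-AID. Their median response was -1.61 in Xrn1-AID and -1.95 in Xrn1-WT, and the median difference was 0.28 (quartiles -0.12 and 0.73), against -0.01 over all tested genes. That median difference was 0.10 with repressed genes chosen on the Xrn1-AID response alone and 0.39 on the Xrn1-WT response. It was 0.093 with no fold threshold and 0.46 past 4-fold. The difference was above 0 in 687 of 1027 repressed genes (66.9%). It passed the test as higher in 44 and as lower in 3, the lower ones being the cyclin gene CLB6, UGA3, an activator of GABA genes, and the repressor gene NRG2. At an unadjusted p under 0.05 the counts were 264 higher and 37 lower. Over all 6195 tested genes they were 644 higher and 462 lower, the background for such counts in the lists below. The 44 higher became 5 and 17 without Xrn1-AID 30 min replicates 1 and 2 in turn, 14 and 13 without Xrn1-AID 0 min replicates 1 and 3, 8 and 17 without Xrn1-WT 30 min replicates 1 and 3, and 16 without Xrn1-WT 0 min replicate 1. They were 6 with a block for the title's replicate number, 5 in a fit of the 4 groups at 0 and 30 min alone, 17 with library size alone and 114 by DESeq2.

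Among induced genes the median difference was below 0. Their median response was 1.75 in Xrn1-AID and 1.80 in Xrn1-WT, with a median difference of -0.13 (quartiles -0.51 and 0.32). That median was -0.030 without Xrn1-AID 30 min replicate 2, and 0.050 with induced genes chosen on the Xrn1-AID response alone. No induced gene passed edgeR's test as higher and 17 passed as lower, while at an unadjusted p under 0.05 there were 59 higher and 128 lower. By DESeq2, 7 were higher and 53 lower. Of the 4166 other genes, 18 were called higher and 14 lower, with a median difference of -0.03.

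The library values show where each class moved. Repressed genes stood, in the median, at -0.85 and -0.97 log2 units from their own mean over the 11 libraries in Xrn1-AID at 30 min, and at -1.05, -1.10 and -1.01 in Xrn1-WT at 30 min. At 0 min they stood at 0.73, 0.82 and 0.76 in Xrn1-AID and at 0.83, 0.89 and 0.99 in Xrn1-WT. Neither pair of groups overlapped: Xrn1-AID was the higher arm at 30 min and the lower arm at 0 min. For induced genes the 30 min medians were 1.03 and 0.99 in Xrn1-AID and 1.01, 0.92 and 0.99 in Xrn1-WT, which overlapped, while the 0 min medians were -0.76, -0.77 and -0.80 in Xrn1-AID and -0.82, -0.92 and -0.89 in Xrn1-WT, which did not.

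On the repressed side the difference was larger below a mean response of -2 than between -2 and -1, and about level below -3. Its median was 0.52 in the 19 genes whose mean response was below -4, 0.54 in 78 genes between -4 and -3, 0.45 in 283 genes between -3 and -2, and 0.16 in 672 genes between -2 and -1. On the induced side it was -0.11, -0.16 and -0.34 in genes with mean responses of 1 to 2, 2 to 3 and 3 to 4. In the 108 genes induced beyond 4 it was 0.03, and none of them was called. Without Xrn1-WT 0 min replicate 1 the median beyond 4 was -0.42, and that of the bin from 3 to 4 was -0.43.

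**Figure D2:**
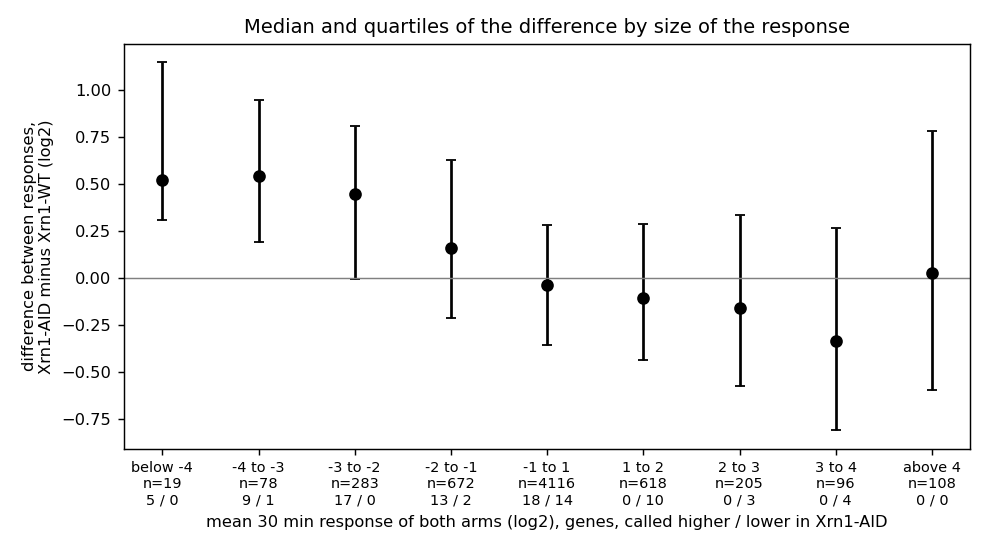
Points are medians and lines quartiles of the difference between the responses (y axis, log2, Xrn1-AID minus Xrn1-WT) in bins of the mean 30 min response of both arms (x axis), with the number of genes and of genes called higher and lower under each bin. The median goes from 0.52 in the most repressed bin to -0.34 in genes induced by 3 to 4 log2 units, and is 0.03 beyond 4 (-0.42 without Xrn1-WT 0 min replicate 1).

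Of the 44 repressed genes called higher, 40 had a fitted level lower in Xrn1-AID than in Xrn1-WT at 0 min and higher at 30 min. Their median level at 30 min was 26.9% of the 0 min level in Xrn1-AID and 10.9% in Xrn1-WT, and 43 of them passed the test for a change in both arms. At 0 min, 26 were called lower in Xrn1-AID than in Xrn1-WT (16.4% of all tested genes, and 32.6% were called in either direction), and at 30 min 31 were called higher (11.5% of all tested genes, and 22.5% in either direction). In 28 genes every Xrn1-AID library lay below every Xrn1-WT library at 0 min and above every one at 30 min. Of all tested genes, 20.8% lay wholly below at 0 min and 27.9% wholly above at 30 min. The all-gene share with both, or with the fitted crossing, was not computed. The contrasts between the arms at 0 and at 30 min use the libraries of the difference itself, so they describe it and add no separate evidence. At 10 min 36 of the 44 had a difference above 0, yet none passed edgeR's test at 10 min, where 0.775% of all genes did (0.291% higher and 0.484% lower). The 10 min difference shares the 0 min libraries, so its sign is no separate evidence. Its median over all tested genes was 0.088.

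Among the 17 induced genes called lower, the median 30 min level was 235% of the 0 min level in Xrn1-AID and 659% in Xrn1-WT. At 0 min 13 of them were called higher in Xrn1-AID (16.2% of all tested genes were), and at 30 min 9 were called lower (11% of all tested genes). All 17 had a difference below 0 at 10 min, which shares the 0 min libraries, and 1 of them, SSA4, passed the test there.

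Of 145 tested ribosome biogenesis genes, which encode the factors that process ribosomal RNA and assemble subunits, 18 were called higher in Xrn1-AID and 0 lower at an adjusted p under 0.05, and the difference was above 0 in 131. Over all tested genes 1% were called higher and 0.549% lower, the background for this list and those below. The list's median response was -2.28 in Xrn1-AID and -2.98 in Xrn1-WT, with a median difference of 0.64. By DESeq2, 46 were called higher and 0 lower, while without Xrn1-AID 30 min replicate 1 none passed, although the median was 0.63.

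CBF5 (YLR175W, chromosome XII, 506134 to 507585) had 200 and 143 CPM in Xrn1-AID at 30 min, against 440, 558 and 575 CPM at 0 min. Xrn1-WT libraries had 81.9, 104 and 89.0 CPM at 30 min, against 825, 799 and 987 CPM at 0 min. Its 4 groups did not overlap: Xrn1-WT had both the highest and the lowest levels and Xrn1-AID lay between them. The difference was 1.63 ± 0.25 (adjusted p = 0.00686), and without Xrn1-AID 30 min replicate 1 it was 1.38 with an adjusted p of 0.0636.

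HCA4 (YJL033W), an RNA helicase of small subunit assembly, had 9.82 and 9.20 CPM in Xrn1-AID at 30 min against 72.8, 100.2 and 111 CPM at 0 min, and 4.39, 6.01 and 4.41 CPM in Xrn1-WT at 30 min against 139, 150 and 125 CPM at 0 min. UTP23 (YOR004W), a part of the small subunit processome, had 6.85 and 5.98 CPM in Xrn1-AID at 30 min against 67.8, 85.8 and 77.1 CPM at 0 min, and 2.82, 2.66 and 3.26 CPM in Xrn1-WT at 30 min against 93.6, 94.9 and 99.2 CPM at 0 min. Both showed the crossing of CBF5, with differences of 1.48 ± 0.25 for HCA4 and 1.46 ± 0.25 for UTP23 (adjusted p = 0.015 each). NOP6, an rRNA binding protein of small subunit assembly, differed by 1.44 ± 0.25 (adjusted p = 0.0165). Each of these 3 lost its call without Xrn1-AID 30 min replicate 1 and without Xrn1-WT 30 min replicate 1.

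Not every assembly gene moved so. NOP1, the fibrillarin that methylates ribosomal RNA, had 145 and 111 CPM in Xrn1-AID at 30 min against 711, 745 and 800 CPM at 0 min, and 124, 106 and 132 CPM in Xrn1-WT at 30 min against 734, 774 and 693 CPM at 0 min. Its groups overlapped between the arms at both times, and the difference was 0.05 ± 0.24 (adjusted p = 0.927). Of 37 genes of RNA polymerases I and III, 1 was called higher and 0 lower, against 1% and 0.549% of all tested genes. Their median difference of 0.03 changed sign in 3 of 22 alternatives (-0.10 with library size alone). The called gene was RPC31, a subunit of RNA polymerase III, with a difference of 1.13 ± 0.23 (adjusted p = 0.0279), lost without 7 of the 11 libraries. For RPA190, the largest subunit of RNA polymerase I, the difference was 0.16 ± 0.35 (adjusted p = 0.834).

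Promoter letters were counted in the windows of 5774 tested genes, on both strands. GATGAG was in 39.5% of the windows of repressed genes called higher (17 of 43), in 28% of all repressed genes and in 13.7% of all windows. AAAAATTTT was in 34.9% of the repressed genes called higher (15 of 43), in 21.6% of all repressed genes and in 6.18% of all windows. Within the ribosome biogenesis list, 66.7% of the 18 called genes and 62.1% of all 145 held GATGAG. A match says only that the letters are in the window, and these shares describe the genes without a test.

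**Figure D3:**
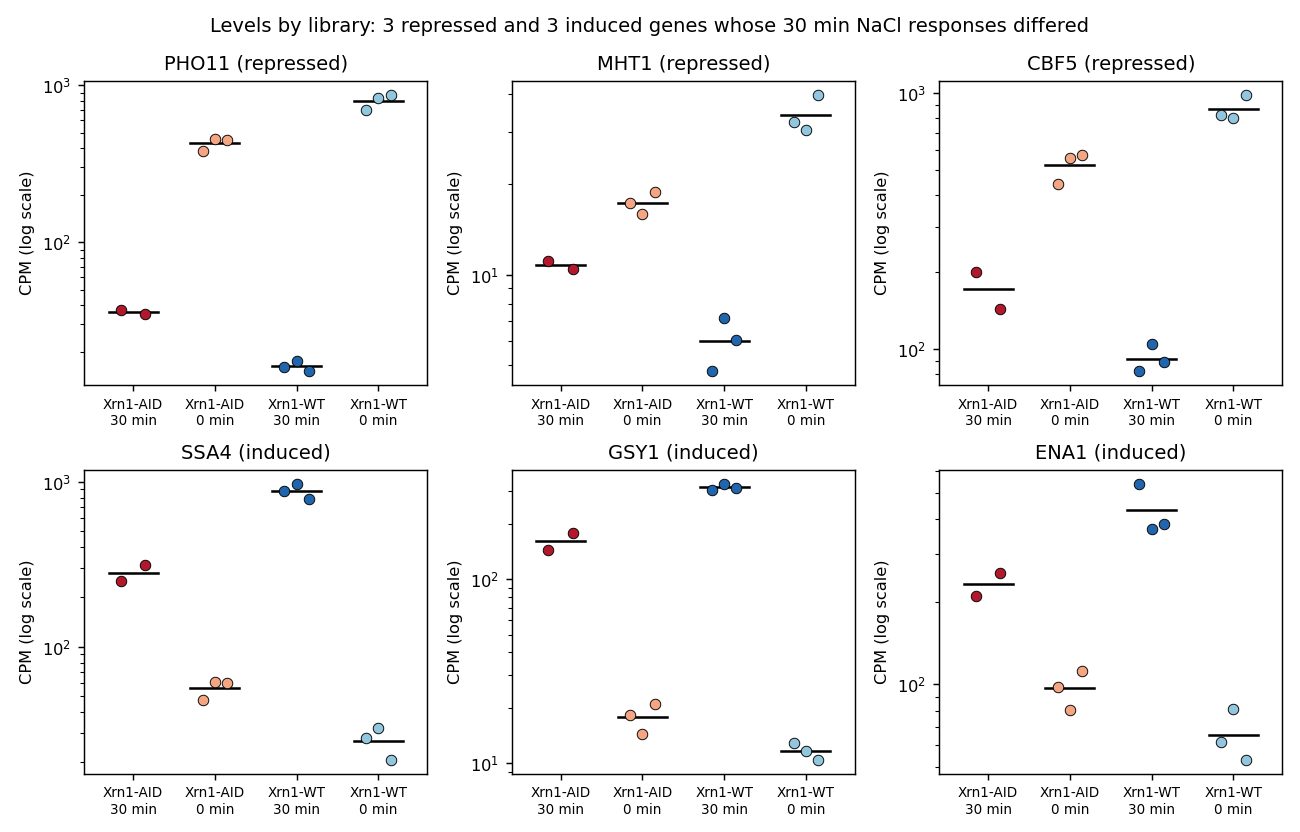
Points are libraries and bars group means of TMM-scaled CPM on a log axis, for 3 repressed genes (PHO11, MHT1, CBF5) and 3 induced genes (SSA4, GSY1, ENA1) in Xrn1-AID and Xrn1-WT at 30 and 0 min NaCl. In all 6 the distance between 30 and 0 min is smaller in Xrn1-AID, and in the repressed genes both Xrn1-AID groups lie between the Xrn1-WT groups.

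Cytosolic ribosomal protein genes moved by more in the median but with more scatter between libraries. The difference was above 0 in all 138 tested, from 0.03 to 2.01, with a median of 0.99, and the median response was -1.42 in Xrn1-AID and -2.40 in Xrn1-WT. By edgeR 6 passed the test, all higher: RPL15A, RPL9B, RPL27A, RPL27B, RPS6A and RPS18B. DESeq2 called 27 higher and 0 lower, and at an unadjusted p under 0.05 edgeR had 88 higher and 0 lower. The list took 12.5% and 10.7% of all counts in Xrn1-AID at 30 min, against 24.4%, 27.3% and 25% at 0 min. In Xrn1-WT it took 8.74%, 7.58% and 9.11% at 30 min, against 30.3%, 28.4% and 37.7% at 0 min. The share was thus higher in both Xrn1-AID libraries at 30 min and lower in all 3 at 0 min than in any Xrn1-WT library of that time.

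Replicate 3 of Xrn1-WT at 0 min, with the share of 37.7%, weighed on this result. Without it the median difference of the list was 0.68 and 136 of 138 genes were above 0, with 2 called higher. RPL15A (YLR029C), a protein of the large subunit, had 2059 and 1949 CPM in Xrn1-AID at 30 min against 3349, 4639 and 3932 CPM at 0 min, and 709, 567 and 821 CPM in Xrn1-WT at 30 min against 4550, 4050 and 8183 CPM at 0 min. The arms did not overlap at 30 min and did at 0 min, where the third Xrn1-WT library was the highest. Its difference was 2.01 ± 0.43 (adjusted p = 0.0348), lost without 8 of the 11 libraries. RPL9B differed by 1.42 ± 0.34 (adjusted p = 0.0488) and RPL27A by 1.33 ± 0.31 (adjusted p = 0.0442), lost without 10 and 9 of the libraries.

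These genes have near-identical copies. The coding sequences of RPL15A and RPL15B match at 93.2% of bases, RPL9A and RPL9B at 93.8% and RPL27A and RPL27B at 89.8%, and how reads with several alignments were counted is not given in the sources used here, so the split within a pair is uncertain. RPL3, a single large subunit gene, differed by 0.98 ± 0.56 (adjusted p = 0.369) and RPS31, a ribosomal protein made as a ubiquitin fusion, by 1.37 ± 0.62 (adjusted p = 0.262). Without Xrn1-WT 0 min replicate 3 these values were 0.22 for RPL3 and 0.62 for RPS31. The 67 mitochondrial ribosomal protein genes had a median difference of 0.23, or 0.078 with library size alone. By edgeR 0 of them were called, 12 were higher and 0 lower at an unadjusted p under 0.05, and DESeq2 called 5 higher. The 41 translation factor genes had a median of 0.07 (-0.01 with library size alone). By edgeR 0 were called, 5 were higher and 1 lower at an unadjusted p under 0.05, and DESeq2 called 1 higher. At that unadjusted threshold 644 of all 6195 tested genes were higher and 462 lower.

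The acid phosphatase genes PHO11 and PHO12 had the smallest adjusted p of all tested genes. PHO11 (YAR071W, chromosome I, 225460 to 226863) had 36.9 and 35.1 CPM in Xrn1-AID at 30 min, against 384, 458 and 448 CPM at 0 min. The Xrn1-WT values were 16.0, 17.6 and 15.1 CPM at 30 min, against 697, 828 and 870 CPM at 0 min. The groups did not overlap, and on this relative scale the 30 min level was 8.37% of the 0 min level in Xrn1-AID and 2.04% in Xrn1-WT. The difference was 2.04 ± 0.20 (adjusted p = 0.000113), with a range of adjusted p from 4.13e-20 to 0.00364 over the alternatives. At 10 min it was -0.22 (adjusted p = 0.586).

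PHO12 (YHR215W, chromosome VIII, 552099 to 553502) gave nearly the same picture, with 48.1 and 42.2 CPM in Xrn1-AID at 30 min against 486, 572 and 541 CPM at 0 min, and 22.9, 24.1 and 22.2 CPM in Xrn1-WT at 30 min against 995, 1101 and 1466 CPM at 0 min. Its difference was 2.12 ± 0.24 (adjusted p = 0.000407). The coding sequences of PHO11 and PHO12 match at 99.7% of bases (1400 of 1404), so these are not 2 independent observations and their counts may be divided arbitrarily. PHO3, the constitutive acid phosphatase, and its neighbour PHO5, made on phosphate starvation, also had smaller falls in Xrn1-AID: the differences were 1.33 ± 0.23 (adjusted p = 0.0152) for PHO3 and 1.25 ± 0.28 (adjusted p = 0.0414) for PHO5, which match each other at 86.5% of coding bases.

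The rest of the phosphate genes did not move as one. Of 19 tested, these 4 were called higher and 0 lower, and the median difference was 0.45 with 11 above 0. PHO84, the high-affinity phosphate transporter, had 156 and 124 CPM in Xrn1-AID at 30 min against 2008, 1411 and 1816 CPM at 0 min, and 95, 115 and 130 CPM in Xrn1-WT at 30 min against 1158, 1567 and 1214 CPM at 0 min, a difference of -0.10 ± 0.37 (adjusted p = 0.9). Both arms lost PHO84 mRNA to a similar degree in these values, unlike PHO11. CACGTG was in 4 of 43 windows of repressed genes called higher (9.30%), in 3.85% of those of all repressed genes and in 3.07% of all windows, and this motif was chosen after the calls were seen.

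MHT1 (YLL062C, chromosome XII, 16639 to 17613), which methylates homocysteine from S-methylmethionine, had 11.1 and 10.4 CPM in Xrn1-AID at 30 min, against 17.3, 15.9 and 18.9 CPM at 0 min. In Xrn1-WT it had 4.75, 7.15 and 6.04 CPM at 30 min, against 32.4, 30.5 and 39.8 CPM at 0 min. As with CBF5, the 4 groups were apart and the Xrn1-AID groups lay inside the Xrn1-WT range. Its difference was 1.83 ± 0.27 (adjusted p = 0.00671), and 0.0532 when the test asked for more than 1.5-fold.

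MET16, the reductase of activated sulfate, had 23.6 and 22.6 CPM in Xrn1-AID at 30 min against 19.8, 21.5 and 18.9 CPM at 0 min, and 12.0, 12.8 and 14.7 CPM in Xrn1-WT at 30 min against 28.9, 25.4 and 27.5 CPM at 0 min. It was lower in every Xrn1-WT library at 30 min than at 0 min and higher in both Xrn1-AID libraries, with a difference of 1.25 ± 0.21 (adjusted p = 0.015). MET14, the kinase one step earlier, differed by 1.06 ± 0.18 (adjusted p = 0.0152) and MET1, which makes the siroheme of sulfite reductase, by 1.03 ± 0.23 (adjusted p = 0.0396). ARG8, an aminotransferase of arginine synthesis, differed by 1.26 ± 0.26 (adjusted p = 0.0271). These were the 4 called of 73 amino acid biosynthesis genes, none being lower, against 1% higher and 0.549% lower over all tested genes. The list's median of 0.01 changed sign in 5 of 22 alternatives, down to -0.13 with library size alone. The 21 purine genes had a median of 0.34, with 0 called by edgeR or DESeq2 and 5 higher and 1 lower at an unadjusted p under 0.05. AAH1, the adenine deaminase, kept 4.68 and 2.63 CPM in Xrn1-AID at 30 min and 3.37, 2.53 and 2.83 CPM in Xrn1-WT, a difference of 0.69 ± 0.38 (adjusted p = 0.35).

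Of 49 mRNA decay factor genes, 1 was called higher and 0 lower, against 1% and 0.549% of all tested genes. Their median difference was -0.07 (0.02 after correction for GC content and coding length). The called gene was DCP1 (YOL149W, chromosome XV, 44938 to 45633), a subunit of the decapping enzyme that makes the substrate of Xrn1. It had 28.1 and 22.3 CPM in Xrn1-AID at 30 min, against 30.4, 28.1 and 26.0 CPM at 0 min, and 29.5, 32.0 and 34.6 CPM in Xrn1-WT at 30 min, against 73.8, 61.5 and 77.1 CPM at 0 min. Its arms were apart at 0 min, where Xrn1-AID was lower (log2 -1.33, adjusted p = 1.72e-05), and differed less at 30 min (-0.35, adjusted p = 0.107). The difference was 0.98 ± 0.20 (adjusted p = 0.0271), lost without 5 of the 11 libraries. DCP2, the catalytic subunit, differed by -0.20 (adjusted p = 0.823). The 18 nonsense-mediated decay genes and targets had a median of -0.31, with 0 called by edgeR or DESeq2 and 3 higher and 0 lower at an unadjusted p under 0.05.

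On the induced side the chaperone gene SSA4 stood apart. SSA4 (YER103W, chromosome V, 364589 to 366517), a stress-inducible Hsp70, had 249 and 313 CPM in Xrn1-AID at 30 min, against 47.6, 60.6 and 59.8 CPM at 0 min. Xrn1-WT libraries had 877, 976 and 787 CPM at 30 min, against 28, 32.2 and 20.5 CPM at 0 min. Xrn1-AID was lower in both libraries at 30 min and higher in all 3 at 0 min. The difference was -2.70 ± 0.34 (adjusted p = 0.00156, between 8.88e-13 and 0.0333 over the alternatives). At 10 min SSA4 had 218, 207 and 186 CPM in Xrn1-AID and 291, 291 and 524 CPM in Xrn1-WT, and the difference between the 10 min responses was -1.91 (adjusted p = 0.0244).

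SSA3, the other stress-inducible Hsp70 gene, whose coding sequence matches that of SSA4 at 76.5% of aligned positions, differed by -0.95 ± 0.20 (adjusted p = 0.0279). SSA3 had 109 and 112 CPM in Xrn1-AID at 30 min against 49.5, 64.2 and 60.6 CPM at 0 min, and 130, 148 and 118 CPM in Xrn1-WT at 30 min against 35.6, 35.3 and 36.7 CPM at 0 min. These were the only calls, both lower, among 29 Hsf1 chaperone genes, whose median of -0.05 changed sign in 2 of 22 alternatives (0.04 after correction for GC content and coding length). HSP104, a disaggregase of the same regulon, had 1323 and 1340 CPM in Xrn1-AID at 30 min and 1628, 1752 and 1616 CPM in Xrn1-WT, with a difference of -0.54 (adjusted p = 0.329). TTCNNGAA was in 3 of 17 windows of induced genes called lower (17.6%), in 9.30% of those of all induced genes and in 9.20% of all windows, a motif chosen after the calls were seen.

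Reserve carbohydrate genes all lay on 1 side. Of 20 trehalose and glycogen genes, the difference was below 0 in all 20, with a median of -0.57, and their median response was 2.85 in Xrn1-AID and 3.59 in Xrn1-WT. One was called: GSY1 (YFR015C), a glycogen synthase, with 144 and 179 CPM in Xrn1-AID at 30 min against 18.4, 14.4 and 21.0 CPM at 0 min, and 303, 330 and 312 CPM in Xrn1-WT at 30 min against 13.0, 11.6 and 10.4 CPM at 0 min. GSY1 was lower in Xrn1-AID at 30 min and higher at 0 min, and differed by -1.59 ± 0.31 (adjusted p = 0.0236). It lost its call without 5 of the 11 libraries. Values of genes that did not pass include -1.23 for GLC3, the glycogen branching enzyme (adjusted p = 0.0847), and -0.46 for TPS1, trehalose phosphate synthase (adjusted p = 0.386).

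Sodium pump genes had smaller 30 min responses in Xrn1-AID. ENA1 (YDR040C, chromosome IV, 535192 to 538467), the plasma membrane sodium ATPase, had 210 and 255 CPM in Xrn1-AID at 30 min, against 97.7, 81.0 and 112 CPM at 0 min. The Xrn1-WT values were 540, 370 and 386 CPM at 30 min, against 61.9, 81.5 and 53.1 CPM at 0 min. The arms were apart at 30 min and overlapped at 0 min. At 10 min the ENA1 response was 3.44 in Xrn1-AID and 3.69 in Xrn1-WT. The difference between the 10 min responses was -0.25 for ENA1 (adjusted p = 0.728), -0.32 for ENA2 (adjusted p = 0.618) and -0.32 for ENA5 (adjusted p = 0.668). At 30 min the differences were -1.46 ± 0.32 for ENA1 (adjusted p = 0.0373), -1.53 ± 0.31 for ENA2 (adjusted p = 0.0271) and -1.61 ± 0.36 for ENA5 (adjusted p = 0.0383). With each of 11 libraries left out in turn, ENA1 and ENA5 kept their calls in 3 fits and ENA2 in 5. All 3 lost them with library size alone, with either replicate block and in the fit of the 4 groups at 0 and 30 min alone. These 3 tandem genes match at 97.7% to 99.0% of coding bases and may count as 1 observation. With HAL1, a halotolerance gene (-1.20 ± 0.24, adjusted p = 0.0271), they were the 4 called of 19 cation transport genes, all lower, and 15 of the 19 were below 0. Calls as lower made up 0.549% of all tested genes.

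General stress genes of the Msn2 and Msn4 regulon had a median response of 4.42 in Xrn1-AID and 4.99 in Xrn1-WT. Their median difference was -0.42 over 48 genes, 33 of them below 0, and the 3 called were SSA4, SSA3 and GSY1, all lower. DESeq2 called 1 higher and 5 lower, and edgeR had 4 higher and 10 lower at an unadjusted p under 0.05. AGGGG was in 4 of 17 windows of induced genes called lower (23.5%), in 40.2% of those of all induced genes and in 16.6% of all windows. The 32 stress transcription factor genes had a median of -0.64 with 2 called lower, NRG2 and MGA1, which encodes a factor resembling heat shock factor. DESeq2 called 0 of the 32 higher and 7 lower, and edgeR had 0 higher and 14 lower at an unadjusted p under 0.05. MGA1 had 3.88 and 7.61 CPM in Xrn1-AID at 30 min against 2.46, 1.74 and 1.88 CPM at 0 min, and 30.1, 18.9 and 19.2 CPM in Xrn1-WT at 30 min against 1.16, 1.26 and 0.303 CPM at 0 min, a difference of -3.17 ± 0.60 (adjusted p = 0.0227).

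Hog1 effector genes, as a list, did not show this direction. The 28 Hog1 effector genes had a median difference of 0.10, which was -0.31 without Xrn1-WT 0 min replicate 1 and -0.02 with library size alone, and 1 of them, ENA1, was called, as lower. DESeq2 called 3 higher and 4 lower, and edgeR had 6 higher and 4 lower at an unadjusted p under 0.05. HSP12 (YFL014W), a membrane-associated stress protein, had 12700 and 12390 CPM in Xrn1-AID at 30 min, against 9.69, 13.9 and 14.4 CPM at 0 min. In Xrn1-WT it had 9199, 8741 and 9482 CPM at 30 min, against 241, 19.8 and 33.7 CPM at 0 min. The difference of 3.41 ± 0.90 did not pass (adjusted p = 0.0643), and it was 1.54 without the Xrn1-WT library at 241 CPM. It passed by DESeq2 (3.43, adjusted p = 0.0161), and by edgeR without Xrn1-WT 0 min replicate 2 (3.90, adjusted p = 0.0161), without replicate 3 (3.83, adjusted p = 0.0454) and without both (4.71, adjusted p = 9.88e-06).

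That library, replicate 1 of Xrn1-WT at 0 min, was high in other stress genes as well. STL1, the glycerol importer, had 17.9 CPM there against 1.6 and 2.29 CPM in the other two, and its difference was 2.15 ± 0.95 (adjusted p = 0.253), or 0.27 without that library. CTT1, the cytosolic catalase, had 67.4 CPM against 13.1 and 20.0 CPM, and its difference of 0.55 ± 0.61 (adjusted p = 0.658) was -0.46 without that library. TKL2, a transketolase, had 11.2 CPM against 2.04 and 3.46 CPM, with 0.76 ± 0.62 (adjusted p = 0.531), or -0.23 without it. GPD1, the first enzyme of glycerol synthesis, differed by -0.83 ± 0.42 (adjusted p = 0.315). Of 16 glycerol genes edgeR called 0 and DESeq2 1 lower, with 1 higher and 1 lower at an unadjusted p under 0.05. Without Xrn1-WT 0 min replicates 2 and 3, edgeR called 2 glycerol genes higher. Of 23 HOG pathway signalling genes edgeR and DESeq2 called 0, with 1 higher and 3 lower at an unadjusted p under 0.05, and 1 was called lower after correction for GC content and coding length.

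Other induced genes with lower responses were spread over functions. HXT6, a high-affinity glucose transporter, had 64.4 and 53.3 CPM in Xrn1-AID at 30 min against 75.8, 32.7 and 62.7 CPM at 0 min, and 205, 159 and 267 CPM in Xrn1-WT at 30 min against 43.2, 55.4 and 59.3 CPM at 0 min. It passed as induced in Xrn1-WT (2.00, adjusted p = 2.42e-05), while in Xrn1-AID the change was 0.04 (adjusted p = 0.92), and the difference was -1.95 ± 0.44 (adjusted p = 0.0413). HXT6 shares 99.8% of its coding bases with HXT7, whose difference was -1.64 (adjusted p = 0.101). YPS1, a cell surface protease, differed by -1.64 ± 0.40 (adjusted p = 0.0494) and PRR2, a protein kinase, by -1.90 ± 0.42 (adjusted p = 0.0369). YJR115W and YHR022C, which the files leave without a common name, differed by -2.03 ± 0.36 (adjusted p = 0.017) and -1.95 ± 0.47 (adjusted p = 0.0486), and YHR022C overlaps YHR021W-A. For the 12 mating type alpha and meiosis markers the median was -0.61, with 0 called by edgeR or DESeq2 and 0 higher and 2 lower at an unadjusted p under 0.05.

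No induced gene passed as higher by edgeR with all libraries, while DESeq2 called 7 and edgeR called 9 without Xrn1-WT 0 min replicate 2, 1 without replicate 3 and 13 without both. By edgeR the 3 of smallest p on that side were HSP12, ECM15 (1.05 ± 0.31, adjusted p = 0.0929) and GCV1, a subunit of glycine decarboxylase (0.86 ± 0.25, adjusted p = 0.089). GCV1 had 112 and 128 CPM in Xrn1-AID at 30 min against 36.8, 37.2 and 37.4 CPM at 0 min, and 28.4, 45.3 and 46.2 CPM in Xrn1-WT at 30 min against 24.8, 24.6 and 18.4 CPM at 0 min.

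Among genes in neither class, the arms went opposite ways in some. CLN3 (YAL040C), the cyclin that starts the cell cycle, had 25.5 and 36.7 CPM in Xrn1-AID at 30 min, against 74.9, 55.9 and 63.9 CPM at 0 min. Xrn1-WT libraries had 70.0, 56.7 and 68.5 CPM at 30 min, against 45.9, 52.2 and 28.7 CPM at 0 min. Every Xrn1-AID library fell below its 0 min libraries and every Xrn1-WT library stood above its own. The response was -1.06 in Xrn1-AID (adjusted p = 0.00398) and 0.62 in Xrn1-WT (adjusted p = 0.0354), and the difference was -1.68 ± 0.36 (adjusted p = 0.0356), lost without 7 of the 11 libraries. CLN3 and CLB6, a cyclin of S phase (-1.63 ± 0.38, adjusted p = 0.0445), were the 2 called of 39 cyclin and cell cycle genes, both lower, with a median of -0.12.

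Lower responses outside the classes were also called for PLM2, a forkhead-associated protein of G1 (-1.56 ± 0.28, adjusted p = 0.0172), FAT3, of fatty acid uptake (-1.32 ± 0.25, adjusted p = 0.0228), DAN4, a cell wall mannoprotein (-1.22 ± 0.29, adjusted p = 0.0494), SNA4 (-1.13 ± 0.25, adjusted p = 0.0383) and TGL5, a triacylglycerol lipase (-1.10 ± 0.26, adjusted p = 0.0473). RSB1, a sphingolipid base transporter (-2.14 ± 0.48, adjusted p = 0.0387), was the 1 called of 19 pleiotropic drug resistance genes, whose median was -0.67. Among repressed genes UGA3 had 5.99 and 7.22 CPM in Xrn1-AID at 30 min against 40.6, 32.6 and 35.9 CPM at 0 min, and 10.1, 8.59 and 9.14 CPM in Xrn1-WT at 30 min against 24.6, 24.4 and 19.1 CPM at 0 min, a difference of -1.17 ± 0.23 (adjusted p = 0.0236). NRG2 differed by -1.14 ± 0.26 (adjusted p = 0.0416).

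Higher responses outside the classes were called for ODC2, a mitochondrial dicarboxylate carrier (1.38 ± 0.33, adjusted p = 0.0488), SDD2 (1.31 ± 0.29, adjusted p = 0.0373), CNL1, a subunit of the endosomal BLOC-1 complex (1.25 ± 0.26, adjusted p = 0.0279), MNN4, of cell wall mannan phosphorylation (1.25 ± 0.29, adjusted p = 0.0442), and JIP5 (1.15 ± 0.22, adjusted p = 0.0215). ODC2 had 284 and 210 CPM in Xrn1-AID at 30 min against 132, 174 and 132 CPM at 0 min, and 92.4, 103 and 77.2 CPM in Xrn1-WT at 30 min against 126, 97.0 and 196 CPM at 0 min. Its arms were apart at 30 min, Xrn1-AID being higher, and overlapped at 0 min. Among features classed as repressed YLR198C, which had no RefSeq match, had the largest difference of any called gene, 4.12 ± 0.82 (adjusted p = 0.0257). Its response was -0.03 in Xrn1-AID and -4.15 in Xrn1-WT, so its class rested on Xrn1-WT alone. Levels were low: 0.705 and 0.242 CPM in Xrn1-AID at 30 min against 0.625, 0.37 and 0.356 CPM at 0 min, and 0.97, 1.15 and 0.762 CPM in Xrn1-WT at 30 min against 23.9, 7.77 and 20.1 CPM at 0 min.

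**Figure D4:**
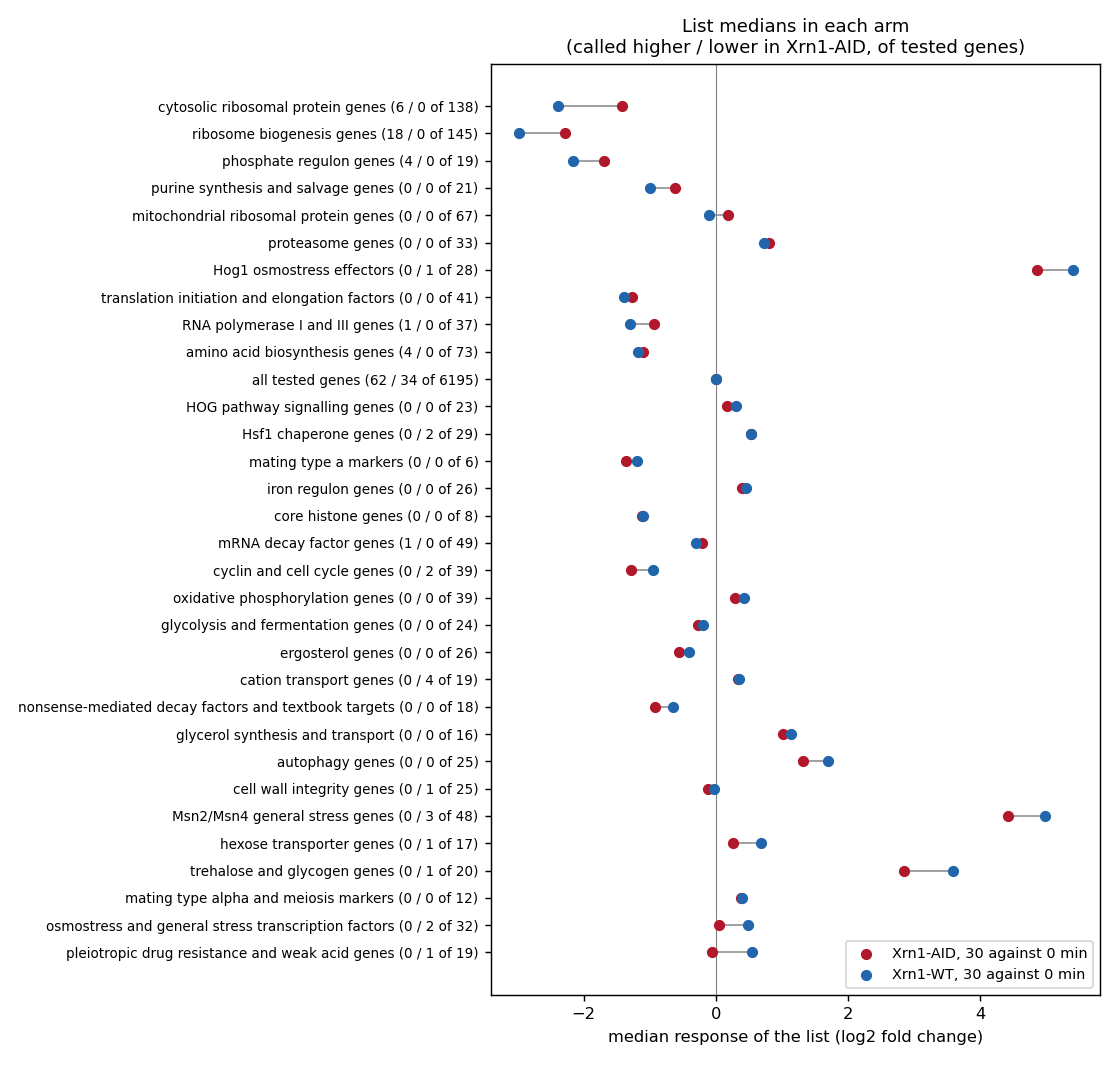
Points are the median log2 responses of each gene list in Xrn1-AID (red) and Xrn1-WT (blue), with the number of genes called higher and lower in Xrn1-AID of those tested. Cytosolic ribosomal protein and ribosome biogenesis genes have the widest gaps on the repressed side, with medians of -1.42 in Xrn1-AID and -2.40 in Xrn1-WT and of -2.28 in Xrn1-AID and -2.98 in Xrn1-WT.

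Lists with 0 called in either direction by edgeR included the 33 proteasome genes (median 0.15), 39 oxidative phosphorylation genes (-0.21), 24 glycolysis genes (-0.22), 26 ergosterol genes (-0.25), 25 autophagy genes (-0.35), 26 iron genes (-0.06), 8 core histone genes (-0.06) and 6 mating type a markers (-0.06). At an unadjusted p under 0.05 the counts higher and lower were 3 and 1 for proteasome, 1 and 4 for oxidative phosphorylation, 0 and 7 for glycolysis, 0 and 8 for ergosterol, 0 and 4 for autophagy and 4 and 3 for iron genes, and 0 for histones and a markers. Among all 6195 tested genes they were 644 and 462. DESeq2 called 2 glycolysis, 5 ergosterol and 1 autophagy genes lower and 1 iron gene higher, and 0 in the other four lists. Of 22 alternatives the sign turned in 4 for the iron and the histone lists, in 3 for the mating type a markers and in 1 for glycolysis, whose median was 0.08 without Xrn1-AID 30 min replicate 2. The 25 cell wall integrity genes had a median of -0.41 with YPS1 called, and the 17 hexose transporter genes one of -0.56 with HXT6 called. HO, the mating type endonuclease, was among the most repressed genes of both arms and differed by 0.42 ± 0.30 (adjusted p = 0.487).

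Few of these calls were stable to the choice of libraries. Of the 40 called genes named by rule, 3 (SSA4, PHO11 and PHO12) passed in all 22 alternative settings, 4 passed with each of the 11 libraries left out, and all 40 kept their direction throughout. The number called over all genes was 5 higher and 1 lower without Xrn1-AID 30 min replicate 1, and 122 higher and 66 lower without Xrn1-WT 0 min replicate 2.

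**Figure D5:**
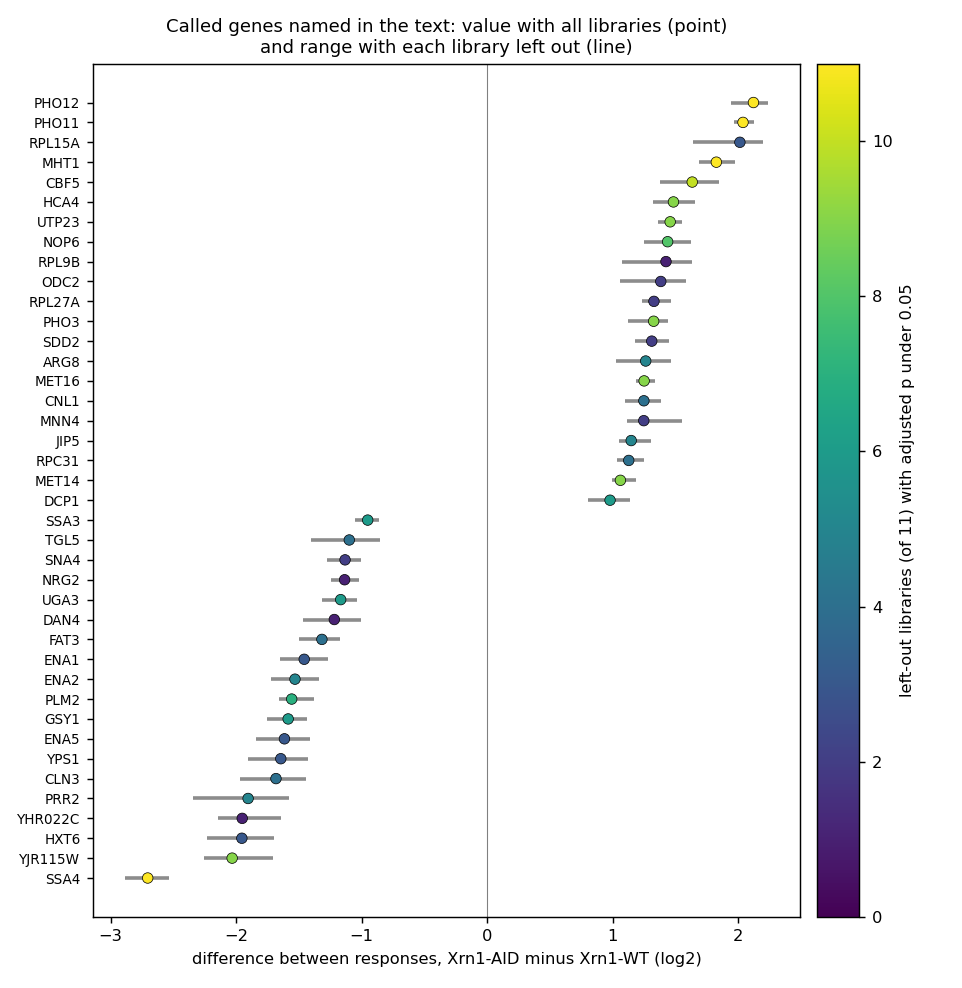
Points are the differences between the responses (x axis, log2, Xrn1-AID minus Xrn1-WT) of the 40 called genes named by rule, lines the range over 11 fits that each leave out 1 library, and the colour the number of those fits with an adjusted p under 0.05. No line crosses 0, and SSA4, PHO11, PHO12 and MHT1 passed in all 11 fits.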

How the data were processed

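Libraries were made with a stranded mRNA kit and sequenced as single reads of 50 bases, per the labels' protocols. The authors deposited raw read counts per gene, per the labels. The submitters' processing notes name sacCer3 as build and, as tools, featureCounts 1.5.1, DESeq2 1.22.2 and TopHat2 2.1.0. The role of each tool, strand setting and treatment of reads with several alignments are not given in the sources used here. Of 7126 features 6048 (84.9%) matched RefSeq.

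Counts were fitted with edgeR 4.0.16 (R 4.3.3): filterByExpr, TMM scaling, glmQLFit with robust estimation and 1 mean for each of the 6 groups of 17 libraries, the 10 min groups sharing the spread. The contrast was (Xrn1-AID 30 min minus 0 min) minus (Xrn1-WT 30 min minus 0 min), with Benjamini-Hochberg adjustment over all tested genes and no fold threshold. SE is the size of the log2 value divided by the square root of F. The procedure was tested on simulated data. Promoters and identities came from R64 (Biopython 1.88).

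Named by rule were XRN1, up to 6 called genes per class and direction and up to 3 per list with the largest differences and a mean of at least 10 CPM, 3 of smallest p where fewer were called, and a panel of 12 genes. Other names (MGA1, HAL1, RSB1, CLB6, MET1, TMA16, PHO5, PHO84, RPL27B, RPS6A, RPS18B, DCP2, HXT7, HSP104, GLC3, TPS1, YLR198C and those of the closing section) were picked with their values in view. The members, lists and tests were chosen with earlier results of these data known. Alternatives were other scaling, filters, tests, classes and fits, a replicate block, and leaving out each library. A GC content and length correction, omission of Xrn1-WT 0 min replicates 2 and 3 together, and leaving out each library for all called genes and for the bins of the response were chosen after seeing the data.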

Additional observations from a re-analysis of the deposited data

Results flagged for a closer look

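The difference between the arms' responses was itself tested, and its calls are the results that differ between groups: 44 repressed genes with a higher and 3 with a lower response in Xrn1-AID, 17 induced genes with a lower response, and 18 others higher and 14 others lower.

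In 14 of the called genes outside the classes the arms' changes had opposite signs, with every 30 min library on its own side of the 0 min libraries of its arm. The change was above 0 in Xrn1-AID and below 0 in Xrn1-WT for SDD2 (difference 1.31), MET16 (1.25), CNL1 (1.25), CHZ1, a histone chaperone for the H2A.Z variant (1.07), MET1 (1.03), NTR2, of spliceosome disassembly (1.00), and SPP2, a splicing factor (0.93). It was below 0 in Xrn1-AID and above 0 in Xrn1-WT for SCS7, the sphingolipid hydroxylase (-0.89), TGL5 (-1.10), HAL1 (-1.20), DAN4 (-1.22), PLM2 (-1.56), CLN3 (-1.68) and RSB1 (-2.14). The adjusted p of these 14 lay between 0.015 and 0.0494. Each arm's change was not required to pass a test of its own. A called difference in genes with a small mean response favours opposite signs, so the count of 14 is no separate evidence. Its share over all tested genes was not computed. Groups of 2 or 3 libraries are too small for a test of single outlying libraries.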

How the results depend on the processing

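Scaling by library size alone called 17 genes higher and 1 lower over all genes, 10 of the higher ones being among the 62 called with TMM (17 of the repressed higher, 1 of the induced lower), with an induced median of -0.22, the median of all genes then being -0.15. DESeq2 called 215 higher and 122 lower (repressed higher 114, induced lower 53), with 367 genes given no adjusted p. A fit of the 4 groups at 0 and 30 min alone called 5 and 3 (repressed 5, induced 3), a test for more than 1.5-fold 2 and 1 (2, 1), and correcting GC content with coding length 143 and 66 (91, 29). Without Xrn1-WT 0 min replicates 2 and 3 together there were 34 and 2 (18, 1), and the repressed median was 0.20.

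Classes cut on the Xrn1-WT response gave medians of 0.39 for repressed and -0.26 for induced genes. Classes cut on the Xrn1-AID response gave 0.10 and 0.050, the induced median being reversed, with 11 induced genes lower. With no fold threshold the medians were 0.093 and -0.059, and past 4-fold 0.46 and -0.19, with 7 induced genes lower.

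With 1 library left out at a time, genes called higher ranged from 5 to 122 and lower from 1 to 66, repressed higher from 5 to 62 and induced lower from 1 to 25, the lowest without Xrn1-AID 30 min replicate 1 and the highest without Xrn1-WT 0 min replicate 2. The repressed median ranged from 0.18 to 0.32 and the induced from -0.19 to -0.030. Omitting an Xrn1-AID 30 min library leaves 1 there, assumed to vary like the other groups.

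A replicate block by title numbers called 6 higher and 2 lower (repressed 6, induced 2), and by description numbers 18 and 9 (16, 6). Libraries sharing a title number had deviations correlated at a median of 0.013 over 15 pairs, from -0.44 to 0.64, 5 of them over 0.1. Deviations were taken from group means and cancel within each group, so these values cannot exclude a pairing. The main fit used no block.

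Signs turned in single genes. With 1 library left out at a time TKL2 ranged from -0.23 to 1.16 and CTT1 from -0.46 to 0.93, both lowest without Xrn1-WT 0 min replicate 1, RPA190 from -0.10 to 0.34 and NOP1 from -0.15 to 0.23. RPA190 was -0.027 without Xrn1-WT 0 min replicates 2 and 3, and NOP1 -0.082 with library size alone. The cause of these changes was not tested. The 2 Xrn1-AID libraries at 30 min limit the precision.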
